A study of Mus musculus with 15 samples.

Results

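The chromobox family was described probe by probe in the spleens of mice with leukemia. Of 7 listed family genes (Cbx1, Cbx2, Cbx3, Cbx5, Cbx6, Cbx7 and Cbx8), 6 had a probe on the array, out of 17914 gene symbols in all. These 6 genes had 7 probes, because Cbx5 was measured by a pair of them. No probe carried the symbol of Cbx1 or a synonym of it, and Cbx1 was not analysed here. The rule takes the probes by gene symbol, not by a measured value.

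The samples were unsorted spleen cells, made into a suspension of single cells and kept as frozen pellets. Every mouse belonged to a model that overexpresses Cbx7, so each group below carried it, and no mouse without it was among the arrays. The labels give the leukemia type, but not the strain, the age, or the vector, promoter or cell type through which Cbx7 was overexpressed. Of the 12 mice with a type, mice 2, 5, 4-1, 2-2, 5-1, 4-2 and 5-3 (n = 7) were labelled as T-cell, and mice 2-3, 5-5, 2-3-2 and 2-3-3 (n = 4) as erythroid leukemia. Mouse 4-3 was the 1 mouse labelled as undifferentiated. Mouse 5-1 and mouse 5-5 were each run on 2 arrays, whose values were averaged. A further array, whose labels give neither a mouse nor a type, was kept out of all comparisons.

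Chromobox proteins carry a chromodomain, a small fold that binds methylated lysines of histone tails. The polycomb members described here, Cbx2, Cbx6, Cbx7 and Cbx8, sit in polycomb repressive complex 1 (PRC1), bind the methylation of lysine 27 of histone H3 (H3K27) that polycomb repressive complex 2 (PRC2) lays down, and compete for the same place in the complex. The heterochromatin members Cbx1, Cbx3 and Cbx5 are the HP1 proteins, which bind methylated lysine 9 of histone H3 (H3K9) in compacted chromatin. In blood formation Cbx7 is known as the member that favours self-renewal of stem cells, while Cbx2 and Cbx8 have been linked to differentiation.

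In the RefSeq gene table for GRCm38.p6, Cbx6 and Cbx7 flank Apobec3, a cytidine deaminase gene of antiviral defence, on chromosome 15. The promoters of Cbx6, which gave the widest separation between the leukemia types, and of its near neighbour Cbx7, the gene that the model overexpresses, are shown as the 250 bases before the RefSeq gene start, read on the minus strand, with CG pairs in capitals. They come from chr15:79834334-79834583 for Cbx6 and chr15:79932647-79932896 for Cbx7.
Cbx6: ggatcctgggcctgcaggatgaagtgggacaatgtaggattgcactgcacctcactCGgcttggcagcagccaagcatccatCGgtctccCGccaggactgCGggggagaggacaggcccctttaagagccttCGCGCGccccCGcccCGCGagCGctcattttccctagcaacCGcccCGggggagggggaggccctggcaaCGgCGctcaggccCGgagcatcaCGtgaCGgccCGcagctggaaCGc
Cbx7: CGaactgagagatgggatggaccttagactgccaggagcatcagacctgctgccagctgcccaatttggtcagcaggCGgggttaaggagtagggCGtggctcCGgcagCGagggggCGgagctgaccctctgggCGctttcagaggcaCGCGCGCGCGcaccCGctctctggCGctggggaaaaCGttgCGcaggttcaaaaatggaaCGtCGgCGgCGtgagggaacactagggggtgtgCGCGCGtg
Both windows are rich in CG pairs. The Cbx6 window holds 20 of them and is 68.0% G or C, and 82% of the 32841 promoter windows in the table hold fewer CG pairs. The Cbx7 window holds 23 and is 64.8% G or C, and 86.7% of windows hold fewer, while the median window holds 6. The motif GGGCGG, a GC box, was found on either strand 2 times in the Cbx6 window and 1 time in the Cbx7 window, against 32.7% of all windows with at least 1. GATAA, the core of the GATA motif, was in neither, and 22.6% of all windows hold it on either strand. The E-box pattern CANNTG was found 2 times in the Cbx6 window and 1 time in the Cbx7 window, and 66.2% of all windows hold it. CCAAT was in the Cbx7 window 1 time and not in that of Cbx6, and 33.9% of windows hold it. The motifs were searched in whole windows and may overlap, and a match marks letters only.

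Values are normalised log2 bead signals, averaged per mouse. A probe counted as detected on an array where its deposited detection p-value, the comparison with the negative control beads of that array, was under 0.05. On the labelled arrays 7382 to 12944 of 25697 probes were detected. Mouse 5-5 on its second array (7382) and mouse 2-3-2 (7554), both erythroid, had the lowest numbers, against 11500 to 12605 on the other erythroid arrays. The chromobox probes were read from 21 to 58 beads per array, with a standard error between beads of 1.93% to 7.65% of the signal. Signals of different probes are not comparable with each other, so levels below are set only against the same probe in other mice.

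The type labels were checked with marker genes. The mean log2 signal over 11 T-cell genes ran from 7.38 to 9.39 in the T-cell mice, from 5.23 to 6.04 in the erythroid mice, and was 5.45 in the undifferentiated mouse. The mean over 15 erythroid genes ran from 8.98 to 9.66 in the erythroid mice and was 8.82 in the undifferentiated mouse. In the T-cell mice it spread from 4.90 to 8.72, highest in mouse 2-2, which also had the lowest T-cell mean. In such bulk samples, fewer cells of a type and less RNA per cell cannot be told apart.

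Cbx7 itself was close to the background of the array in every mouse. The probe's mean bead intensity in the T-cell mice was 140.0 in mouse 2, 136.2 in mouse 2-2, 132.4 in mouse 5, 122.8 in mouse 4-1, 113.9 in mouse 4-2, 109.2 in mouse 5-3, and 123.1 and 101.9 on the arrays of mouse 5-1. In the erythroid mice it was 116.8 in mouse 2-3, 116.3 in mouse 2-3-3, 110.4 in mouse 2-3-2, and 112.7 and 90.4 on the arrays of mouse 5-5, and it was 124.3 in the undifferentiated mouse. The groups overlapped. The median intensity over all probes differed between the labelled arrays too, from 100.6 on the second array of mouse 5-5 to 137.2 on that of mouse 2-3. The bead error of these values was 2.82% to 4.72%, over 29 to 49 beads.

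The detection p-values of Cbx7 place most arrays short of the limit of 0.05. In the T-cell leukemias they were 0.0476 in mouse 5 and 0.0476 in mouse 4-2, which count as detected, then 0.0501 in mouse 2-2, 0.0602 in mouse 2, 0.112 in mouse 4-1, 0.320 in mouse 5-3, and 0.271 and 0.239 on the arrays of mouse 5-1. No erythroid array detected Cbx7, with detection p-values of 0.298 and 0.950 for mouse 5-5, 0.310 for mouse 2-3-2, 0.476 for mouse 2-3-3 and 0.701 for mouse 2-3. The undifferentiated mouse had 0.118. Cbx7 was thus detected on 2 of 14 labelled arrays, both from T-cell leukemias and both just under the limit. The arrays with the fewest detected probes were both erythroid, the second of mouse 5-5 (7382) and that of mouse 2-3-2 (7554).

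**Figure D1:**
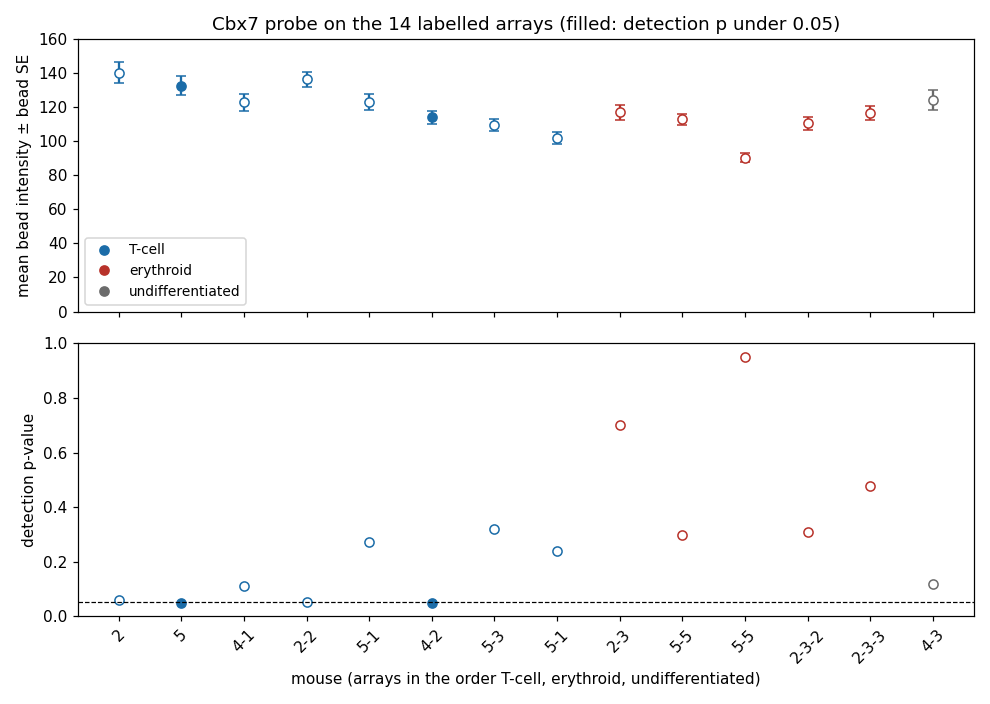
The upper axis gives the mean bead intensity of the Cbx7 probe with the standard error between beads, and the lower axis its detection p-value, for each of the 14 labelled arrays. Filled points are the 2 arrays under the dashed limit of 0.05, from T-cell mice 5 and 4-2. The lowest intensity, 90.4, and the highest detection p-value, 0.950, are both from the second array of mouse 5-5.

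On the normalised scale Cbx7 had a T-cell mean of 4.81 ± 0.19 (SD, n = 7) and an erythroid mean of 4.54 ± 0.12 (SD, n = 4), with 4.78 in the undifferentiated mouse. The T-cell mice ran from 4.58 to 5.08 and the erythroid mice from 4.44 to 4.72, so the groups overlapped. No fold is given: the dimmest detected probes of the erythroid arrays averaged 5.38, which lies above the T-cell mean of Cbx7. The probe did not pass the filter of detection on at least 3 labelled arrays. With no filter, over 25697 probes, Cbx7 missed the threshold in erythroid minus T-cell, with a limma adjusted p of 0.216. The sources used here do not say whether the transcript that carries the overexpressed Cbx7 includes the stretch this probe reads, so these values describe the probe and do not check the model.

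Cbx6 was lower in erythroid than in T-cell leukemias and was the member described here that passed the test. Of 5 chromobox probes tested, from 4 genes, 1 was lower and 0 were higher in the erythroid leukemias. Over all 14432 probes tested, 6.21% were lower and 4.25% higher in the same comparison, with a median difference of -0.02 on the log2 scale.

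Cbx6, a polycomb member whose part in PRC1 is less well studied than that of the others, showed the widest separation among the members tested. Its log2 signal in the T-cell mice was lowest at 9.87 in mouse 2-2, had a median of 10.74 and was highest at 11.40 in mouse 5-3. In the erythroid mice it was 7.85 in mouse 2-3-3, 7.90 in mouse 2-3, 8.19 in mouse 2-3-2 and 9.89 in mouse 5-5. The first 3 of these lay well below every T-cell mouse, while mouse 5-5 reached the lowest T-cell value, so the groups overlapped. Of all 14432 probes tested, 4.35% had every erythroid mouse below every T-cell mouse and 2.67% had every erythroid mouse above. The means were 10.71 ± 0.48 (SD, n = 7) and 8.46 ± 0.97 (SD, n = 4).

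The difference for Cbx6 was -2.25 ± 0.39 on the log2 scale (SE; 95% confidence interval -3.09 to -1.40), 4.75-fold lower in the erythroid leukemias, with a limma adjusted p of 0.00677. The arrays of mouse 5-5 differed from each other, with 9.32 on the first and 10.46 on the second, which was the array with the fewest detected probes. With the first array alone every erythroid mouse lay below every T-cell mouse, and without mouse 5-5 the difference was -2.73. The other erythroid mice, 2-3, 2-3-2 and 2-3-3, share the start of their titles, and the fit counts them as independent. Adding the first mouse number as a term gave -1.82 for Cbx6 (limma adjusted p = 0.0348). Within the samples numbered 1 to 8 in the labels the difference was -1.87 (adjusted p = 0.137), and within those numbered 9 to 16 it was -2.29 (adjusted p = 0.140). The labels do not say what these numbers mark.

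The T-cell marker genes moved with Cbx6. Of 11 T-cell genes tested, 10 were lower in the erythroid leukemias, with a median difference of -3.45, and 6 of 15 erythroid genes were higher. Over all probes tested 6.21% were lower and 4.25% higher. Mouse 2-2, with the lowest Cbx6 of the T-cell mice, had the lowest T-cell mean (7.38) and the highest erythroid mean (8.72) among them. Mouse 5-5, with the highest Cbx6 of the erythroid mice, had a T-cell mean of 6.00, beside 6.04 in mouse 2-3, 5.64 in mouse 2-3-2 and 5.23 in mouse 2-3-3. The part of the cell types in the difference of Cbx6 was not tested.

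Marker lists of other blood cells and of proliferation were read in the same way. Of 6 B-cell genes tested 0 passed in limma, and 0 had an unadjusted p under 0.05, with a mean over 9 genes of 4.54 to 5.99 in the T-cell mice and 4.57 to 5.28 in the erythroid mice. Of 11 granulocyte genes tested 0 passed (0 at an unadjusted p under 0.05), and of 10 macrophage genes 0 passed (1 at an unadjusted p under 0.05). Of 8 megakaryocyte genes 1 was higher in the erythroid leukemias (3 at an unadjusted p under 0.05), with a median difference of 1.15. Of 16 proliferation genes 2 were higher (6 at an unadjusted p under 0.05), with a median difference of 0.60. Over all probes tested 28% had an unadjusted p under 0.05 in limma. After adjustment 6.21% of all probes were lower and 4.25% higher. The proliferation mean was 7.85 to 9.06 in the T-cell and 8.38 to 9.07 in the erythroid mice.

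**Figure D2:**
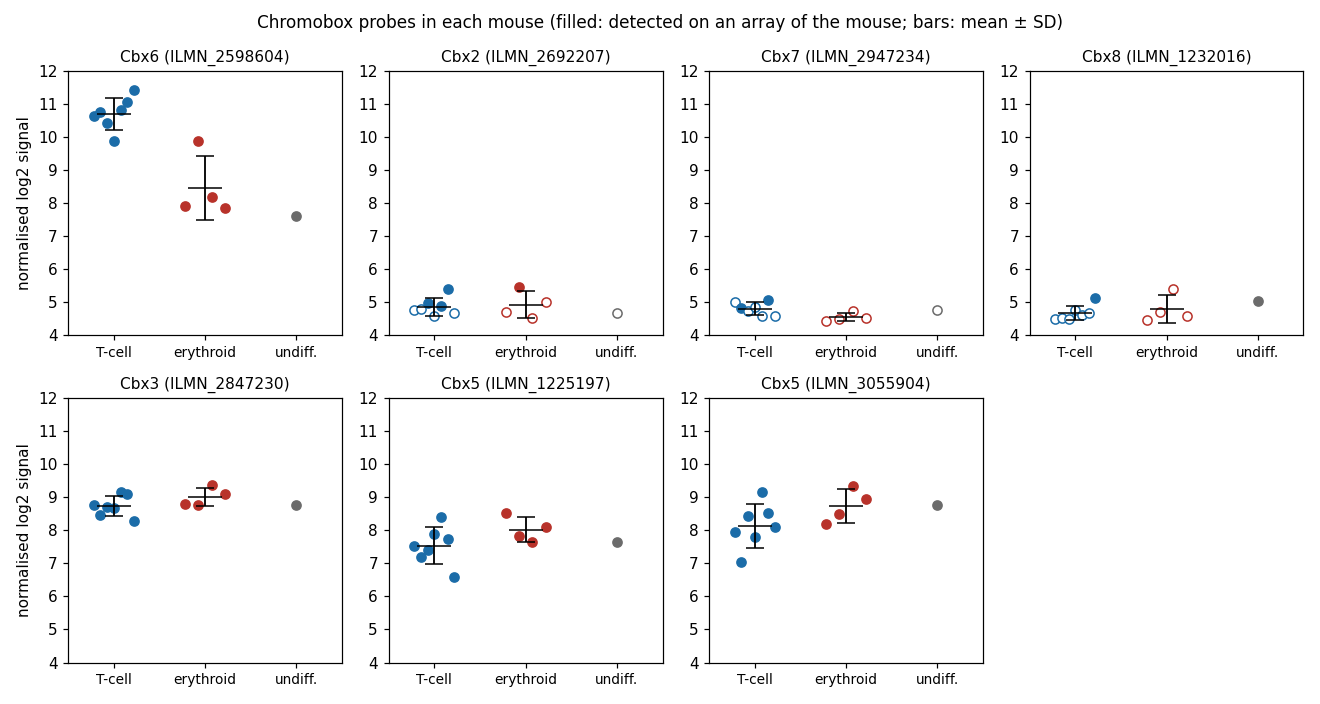
Each panel gives the normalised log2 signal of one chromobox probe, with a point for each mouse and the mean ± SD for the T-cell (n = 7) and erythroid (n = 4) leukemias. Filled points are mice with at least 1 array on which the probe was detected. For Cbx6 the erythroid mean, 8.46, lies below the T-cell mean, 10.71, though mouse 5-5 reaches the lowest T-cell value. The groups overlap in every panel. For Cbx7, near background, 3 of 4 erythroid mice lie below the lowest T-cell mouse, 4.58.

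Cbx2, a polycomb member that can compact chromatin by itself, was near background in most mice. It was detected on 5 of 14 labelled arrays, those of T-cell mice 4-1, 4-2 and 5-1 and the second array of erythroid mouse 5-5. Its log2 signal in the T-cell mice ran from 4.57 in mouse 2-2 through a median of 4.78 to 5.40 in mouse 4-2, and the undifferentiated mouse had 4.67. In the erythroid mice it was 4.53 in mouse 2-3-2, 4.70 in mouse 2-3, 5.00 in mouse 2-3-3 and 5.46 in mouse 5-5. The groups overlapped over nearly their whole range, and the difference was 0.06 ± 0.24 (SE; 95% confidence interval -0.45 to 0.57; limma adjusted p = 0.891). Mouse 5-5 was again uneven for Cbx2, with 4.68 on the first array and 6.25 on the second. The dimmest detected probe of that second array stood at 6.15, so the higher value is near background too.

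Cbx8, a polycomb member known to bind the Ink4a/Arf locus of cell cycle inhibitors, was detected on 2 of 14 labelled arrays. They were those of T-cell mouse 5-3 (log2 signal 5.12, detection p-value 0.0401) and of the undifferentiated mouse (5.04, detection p-value 0.0439). The other T-cell mice ran from 4.50 to 4.76, and the erythroid mice were at 4.47 in mouse 2-3, 4.58 in mouse 2-3-3, 4.70 in mouse 5-5 and 5.40 in mouse 2-3-2. The value of mouse 2-3-2 was the highest of all but was not detected, on an array where the dimmest detected probe stood at 6.09. Cbx8 did not pass the filter, and with no filter it missed the threshold in erythroid minus T-cell (limma adjusted p = 0.767). The size of its difference is not given, because no erythroid array detected it.

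The heterochromatin members were detected on all 14 labelled arrays, and neither of the genes measured passed the test. Cbx3, also called HP1 gamma, is found at active genes as well as in heterochromatin. Its log2 signal in the T-cell mice ran from 8.28 in mouse 5-3 through a median of 8.70 to 9.15 in mouse 5-1. In the erythroid mice it was 8.76 in mouse 5-5, 8.81 in mouse 2-3, 9.08 in mouse 2-3-3 and 9.37 in mouse 2-3-2. These values overlap, and the difference was 0.28 ± 0.23 (SE; 95% confidence interval -0.22 to 0.77; limma adjusted p = 0.458).

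Cbx5, HP1 alpha, is concentrated in the compact heterochromatin around centromeres. Its first probe (ILMN_1225197) ran from 6.60 in mouse 5-3 through a median of 7.51 to 8.39 in mouse 5-1 in the T-cell leukemias, and in the erythroid mice was 7.63 in mouse 2-3-2, 7.83 in mouse 5-5, 8.08 in mouse 2-3-3 and 8.51 in mouse 2-3. Its second probe (ILMN_3055904) ran from 7.04 in mouse 5 through a median of 8.09 to 9.16 in mouse 5-1, and in the erythroid mice was 8.19 in mouse 2-3, 8.48 in mouse 5-5, 8.94 in mouse 2-3-3 and 9.33 in mouse 2-3-2. Both probes overlapped between the types, and both had a positive difference that missed the threshold. The first gave 0.48 ± 0.31 (SE; 95% confidence interval -0.19 to 1.15; limma adjusted p = 0.331) and the second 0.60 ± 0.36 (SE; 95% confidence interval -0.18 to 1.38; limma adjusted p = 0.296).

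The probes of Cbx5 did not order the mice alike. Among the erythroid mice, mouse 2-3 was highest on the first probe and lowest on the second, and mouse 2-3-2 was the reverse. The second probe minus the first ran from -0.32 in mouse 2-3 to 1.70 in mouse 2-3-2. Mouse 2-3-2 is the mouse with the fewest detected probes apart from the second array of mouse 5-5.

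**Figure D3:**
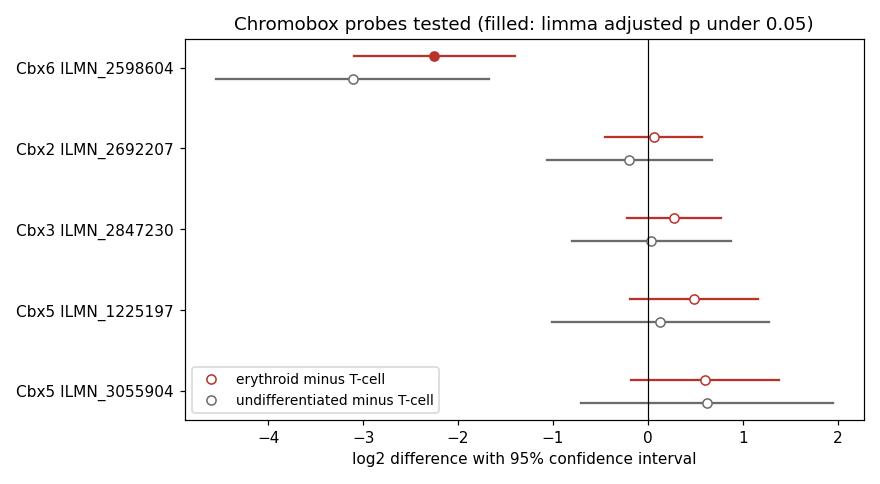
The horizontal axis is the log2 difference of each tested chromobox probe, with its 95% confidence interval, for erythroid minus T-cell (red) and for undifferentiated minus T-cell (grey). The filled point, Cbx6 at -2.25 for erythroid minus T-cell, passed the adjusted threshold. The intervals of Cbx2, Cbx3 and both Cbx5 probes span 0.

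In the single undifferentiated mouse, Cbx6 was 7.59, below every T-cell mouse (lowest 9.87) and every erythroid mouse (lowest 7.85). The share of all probes for which this mouse lay below all others was not counted. Cbx3 was 8.77 and the Cbx5 probes were 7.66 and 8.76, all within the range of the T-cell mice. Against the T-cell leukemias the difference of Cbx6 was -3.11 ± 0.67 (SE; limma adjusted p = 0.119), so 0 of 5 chromobox probes passed. In limma 1 of the 5, Cbx6, had an unadjusted p under 0.05, beside 7.18% of all probes tested, and 0.0139% of all probes were lower after adjustment.

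Whether Cbx6 passed depended on a T-cell mouse: without mouse 2-2, 1 chromobox probe, Cbx6, was lower in the undifferentiated mouse. Against the erythroid leukemias 0 of 5 chromobox probes passed in limma, and 0 of all probes did. Of the 5, 0 had an unadjusted p under 0.05, beside 4.67% of all probes. The difference of Cbx6 was -0.86 (95% confidence interval -2.37 to 0.65; limma adjusted p = 0.932). The spread of a lone mouse is unknown, and the fit gave it the spread within the other types.

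For Cbx6, mouse 5-5 stood apart from the other erythroid mice, whose titles all begin with 2-3. A test of the difference between the erythroid minus T-cell changes of mice with the first number 5 and of mice with the first number 2 gave 1.17 for Cbx6 (limma adjusted p = 0.869). In limma 0 of 5 chromobox probes passed, and 0 had an unadjusted p under 0.05, beside 6.13% of all probes. The labels do not say what the first number marks, and a single erythroid mouse carried the number 5.

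The genes that work with the chromobox proteins were followed as 3 lists, chosen with earlier results of these data known. Of 18 PRC1 partner genes tested, 1 was lower in the erythroid leukemias, 0 were higher and 17 did not pass, beside 6.21% lower and 4.25% higher over all probes, and the median difference was -0.27. The one that fell was Bmi1, the Pcgf subunit through which PRC1 is best known in stem cells, whose T-cell mean was 6.55 ± 0.43 (SD, n = 7), whose erythroid mean was 4.95 ± 0.58 (SD, n = 4) and which was 4.81 in the undifferentiated mouse. Its difference was -1.61 ± 0.30 (SE; limma adjusted p = 0.00881). Bmi1 was detected on all 8 T-cell arrays but on 2 of 5 erythroid arrays, so the erythroid values are near background and the size depends on the background step: without that correction it was -0.61 (adjusted p = 0.0173).

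The other core subunits of PRC1 missed the threshold. Rnf2, the main ubiquitin ligase of the complex, differed by -0.79 ± 0.27 (SE; limma adjusted p = 0.0772), and Ring1, its paralog, by -0.81 ± 0.34 (SE; adjusted p = 0.143). Ring1 was detected on all 8 T-cell arrays but on 3 of 5 erythroid arrays, so the size of its difference rests partly on values near background. Pcgf2, the closest relative of Bmi1, was detected on 7 of 8 T-cell arrays and 1 of 5 erythroid arrays, so the size of its difference is not given (limma adjusted p = 0.0694). Other Pcgf genes did not share a direction: Pcgf5 was at 0.64, Pcgf1 at 0.39, Pcgf3 at 0.004 and Pcgf6 at -0.45, and none passed. Pcgf3 and Pcgf6 were each detected on 3 of 5 erythroid arrays. The polyhomeotic subunit Phc1, read from the brighter of its 2 probes past the filter, had a T-cell mean of 7.42 ± 0.63 (SD, n = 7). Its erythroid mean was 7.03 ± 0.79 (SD, n = 4). Rybp had no probe and was not analysed here, and Phc3, Scml2 and Auts2 did not pass the filter.

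Of 9 PRC2 genes tested, 1 was lower and 0 were higher in the erythroid leukemias, beside the same 6.21% and 4.25% of all probes, with a median difference of -0.07. Jarid2, an accessory protein that helps PRC2 reach its sites, was the one that fell, from 6.84 ± 0.64 (SD, n = 7) in T-cell to 5.06 ± 0.68 (SD, n = 4) in erythroid leukemias, a difference of -1.78 ± 0.38 (SE; limma adjusted p = 0.0135). Jarid2 too was detected on 2 of 5 erythroid arrays, and its difference was -0.74 without background correction (adjusted p = 0.0360) and -1.13 with an offset of 50 (adjusted p = 0.0265). The catalytic subunit Ezh2, read from the brightest of its 3 probes past the filter, was at 8.47 ± 0.53 and 9.26 ± 0.13 in the same groups (adjusted p = 0.0900). The scaffold subunit Suz12 was at 10.30 ± 0.13 and 10.22 ± 0.47 (adjusted p = 0.857).

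Of 28 genes tested among partners of HP1 and enzymes of H3K9 methylation, 1 was lower, 1 was higher and 26 did not pass, shares no larger than the 6.21% and 4.25% of all probes, with a median difference of 0.08. Adnp, a zinc finger protein that joins HP1 in a repressive complex with a chromatin remodeller, fell from 9.04 ± 0.17 (SD, n = 7) to 7.96 ± 0.30 (SD, n = 4), a difference of -1.08 ± 0.20 (SE; limma adjusted p = 0.00881). Chaf1a, the large subunit of the histone chaperone CAF-1, which binds HP1 at replication, rose from 7.33 ± 0.56 to 8.49 ± 0.24, a difference of 1.16 ± 0.30 (SE; limma adjusted p = 0.0301). Under scaling of the arrays to their medians in place of quantile normalization the difference of Chaf1a was 0.69 and no longer passed. Adnp, at -1.465 (limma adjusted p = 0.0587), missed the threshold under that scaling too. Chaf1a also missed the threshold without any one of mice 2, 5, 4-1, 4-2, 5-3, 5-5 or 2-3-3, with an adjusted p of at most 0.0770. With the first mouse number as an added term, Bmi1 (-1.55, adjusted p = 0.0715), Jarid2 (-1.57, adjusted p = 0.0961) and Adnp (-1.18, adjusted p = 0.0547) missed it as well. Each gene named as passing had 1 probe past the filter. For the undifferentiated mouse 0 genes of the 3 lists passed against either type in limma; at an unadjusted p under 0.05, 3 of 18 PRC1 partners passed against the T-cell leukemias (7.18% of all probes) and 1 against the erythroid leukemias (4.67% of all probes), and 0 genes of the other lists.

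**Figure D4:**
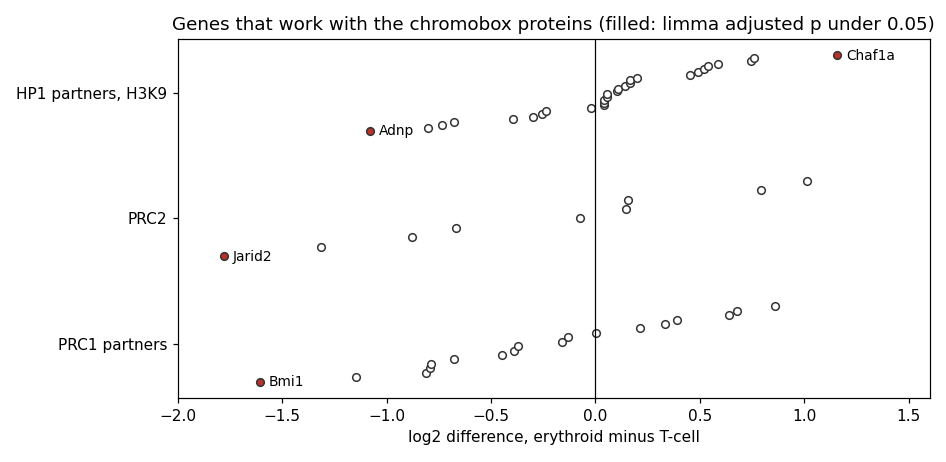
Each point is the log2 difference, erythroid minus T-cell, of 1 tested gene of the PRC1 partner list, the PRC2 list or the list of HP1 partners and H3K9 enzymes, and filled points passed the adjusted threshold. Bmi1 at -1.61, Jarid2 at -1.78 and Adnp at -1.08 lie to the left (the first 2 with erythroid values near background), Chaf1a at 1.16 to the right, and most genes lie between.

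The probes with the pattern most like Cbx6 across the 12 mice were found by Pearson's r over all tested probes of other genes. They were Abcb9, a lysosomal peptide transporter (r = 0.964), Lsr, a lipoprotein receptor (r = 0.961), and H1f0, a linker histone of non-dividing cells (r = 0.961). All 12 points share the split into leukemia types, so part of each r is that split. Within the 7 T-cell mice the same pairs had r from 0.808 to 0.862. These mice are among the 12 by which the probes were picked, so these r are no separate check.

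**Figure D5:**
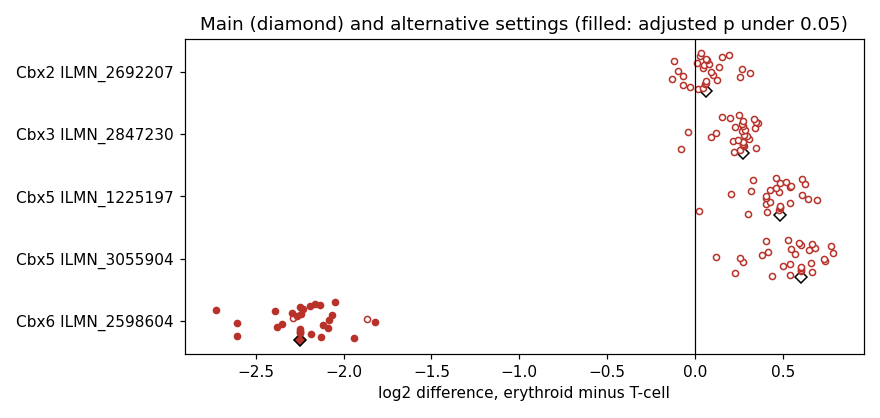
Each row is 1 tested chromobox probe, with the erythroid minus T-cell log2 difference as analysed (diamond) and under each alternative setting (circle); filled symbols have an adjusted p under 0.05. Cbx6 ranges from -2.73 to -1.82, while Cbx2 and Cbx3 lie on both sides of 0.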

How the data were processed

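Gene expression was measured on 15 bead arrays of amplified, biotin-labelled cDNA, per the labels' protocols. The authors deposited a mean bead intensity, with its standard error and the number of beads, and a detection p-value for each probe and array, not normalised between arrays. The authors also deposited processed log2 values, made with limma and R 3.0.2 per the submitters' processing notes, which served as an alternative. For the bead summaries, the software is not given in the sources read here.

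Normalised values were computed from the deposited intensities and detection p-values in R 4.3.3 with limma 3.58.1, by its function neqc (normexp, offset of 16, quantile normalization over all arrays, log2). Probes with a detection p-value under 0.05 on at least 3 of 14 labelled arrays were kept (14432 of 25697). Arrays of 1 mouse were averaged. Models were fitted to 12 mice with lmFit and eBayes, with leukemia type as the single term; p-values were two-sided and Benjamini-Hochberg adjusted over all probes, with a threshold of 0.05. The number of arrays limits the precision. Mice that share the first number of their title may not be independent.

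Every probe of the 7 listed chromobox genes is reported, and a further item is not reported here. Of each list the up to 5 genes with the smallest adjusted p among those past the threshold are named, and the core subunits below it were named after their values were seen. A listed gene with several probes past the filter was read from the probe with the highest mean signal over the labelled arrays. The 3 most alike probes of other genes are named per member past the threshold. The members and lists were chosen with earlier results of these data known. The symbol of each probe was updated through the RefSeq table of GRCm38.p6: it was current for 20733 probes, renamed for 3903 and unmatched for 1061. Promoter sequences are from RefSeq for the same build, with entries for 6 of the 7 genes.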

Additional observations from a re-analysis of the deposited data

Results flagged for a closer look

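Of 22 groups of mice tested (the T-cell or the erythroid mice, for each of 7 chromobox probes and for Bmi1, Jarid2, Adnp and Chaf1a), 2 held a mouse whose gap to the nearest other mouse was over Dixon's 95% critical share of the range, and chance gives about 1 in 20 groups. Cbx6 in erythroid mouse 5-5 was 9.89, with the others at 7.85 to 8.19, a gap of 0.832 of the range, just over the critical share. Cbx8 in T-cell mouse 5-3 was 5.12, with the others at 4.50 to 4.76, a gap of 0.579, just over the critical share.

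The values of mouse 5-5 are means of arrays that differed from each other by more than those of mouse 5-1. Over all tested probes r was 0.824 between the arrays of mouse 5-5 and 0.969 between those of mouse 5-1. Cbx6 was 10.74 and 10.90 in mouse 5-1, against 9.32 and 10.46 in mouse 5-5.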

How the results depend on the processing

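Cbx6 was lower in the erythroid leukemias under all 29 alternatives run and passed the threshold in 27 (-2.73 to -1.82, adjusted p up to 0.140). The count of chromobox probes past the threshold, 1, was 0 in sample numbers 1 to 8 and 0 in 9 to 16, where fewer mice enter. Against the T-cell leukemias the undifferentiated mouse had 0, but 1 (Cbx6) with array quality weights; leaving out a mouse gave 0 to 1, with 1 (Cbx6) without mouse 2-2. The sign of Cbx2, 0.06, turned under median scaling (-0.0300), cyclic loess (-0.0685), first arrays of mice 5-1 and 5-5 (-0.13), without the 2 arrays with the fewest detected probes (-0.0683) and in sample numbers 1 to 8 (-0.10); leaving out a mouse gave -0.12 (without mouse 5-5) to 0.19. Cbx3, 0.28, turned under median scaling (-0.0814) and in sample numbers 1 to 8 (-0.0416). The cause was not tested. Bmi1 passed in 26 of 28 alternatives, Jarid2 in 25 of 28, Adnp in 25 of 29 and Chaf1a in 16 of 29. All probes split as 614 higher and 896 lower, but 62 and 499 under median scaling (median difference -0.20), 543 and 568 under cyclic loess, 287 and 489 with no filter, 425 and 226 with probes detected on all labelled arrays, 364 and 489 without those 2 arrays, 1270 and 1355 with array quality weights, 15 and 127 with the first mouse number, 2 and 1 in sample numbers 1 to 8, and 52 and 164 in 9 to 16. Leaving out a mouse gave 237 to 892 higher and 427 to 1205 lower. The authors' deposited table gave 614 and 905, and Cbx6 passed there too. No paired analysis was possible because repeat numbers in the titles mark arrays of the same mouse. Mice with the same first number deviated from their type's mean with a median r of -0.04 over 17 pairs, against -0.09 over 38 pairs with different numbers. Each mean includes the mice compared with it, which lowers r within a type. These r therefore cannot show whether the mice are independent. Comparisons of the undifferentiated mouse in sample numbers 9 to 16 and the test between first numbers with that number as a term were not run, since they can give no value. Depth here is signal over background, which limits Cbx7, Cbx8 and Cbx2.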

Other observations

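The array with no mouse and no leukemia type in its labels had a Cbx6 log2 signal of 11.28, within the range of the T-cell mice (9.87 to 11.40). Cbx3 was 9.23 there, and the Cbx5 probes were 8.44 and 9.58, each above the highest T-cell mouse (9.15, 8.39 and 9.16). Cbx3 and the first Cbx5 probe lay within the range of the erythroid mice. The second Cbx5 probe lay above the highest erythroid mouse (9.33). Cbx7 was 4.86 with a bead intensity of 116.8 and a detection p-value of 0.0952, so it was not detected. Cbx2 at 4.90 and Cbx8 at 4.72 were not detected either, with detection p-values of 0.0827 and 0.162.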
